A study of Rattus norvegicus with 20 samples.

Results

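The polo-like kinase gene Plk2 and 8 further genes linked to p53 and growth arrest, namely Plk3, Cdkn1a, Gadd45a, Gadd45b, Gadd45g, Mdm2, Btg2 and Trp53inp1, were followed in the blood cells of 20 male rats. Members were taken as the probe sets with a single annotated symbol equal to one of these names. Of the 9 genes, 8 had a probe set, 1 each, among 28826 transcripts, of which 15209 carried a single symbol. Trp53inp1 was found under its current rat symbol Tp53inp1, and Btg2 is named only. Plk2 was chosen from its large difference between CAF-fed WKY and LEW rats in these same arrays, so the values of that contrast are given for the members as a description. The other members were chosen by their known link to p53, with earlier results of these data in view.

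The rats were 15 weeks old and came from 2 inbred strains, WKY/NCrl (WKY) and LEW/Crl (LEW). They were fed for 7 weeks with a cafeteria diet (CAF), an energy-dense choice of human snack foods, or with standard chow (STD), and were fasted for 9 h before blood was taken. The 4 groups were CAF-fed WKY, CAF-fed LEW, STD-fed WKY and STD-fed LEW rats, with 5 rats in each and 1 Rat Gene 1.0 ST array per rat. Each inbred strain stands for 1 genotype, and strain differences cannot be assigned to a locus here. By the sample labels the preparation was of peripheral blood mononuclear cells, and by the methods it was of blood monocytes that had adhered to plastic. The mean of 9 monocyte markers was 10.92 to 12.01 in the 20 arrays, that of 8 T cell markers 11.08 to 11.51 and that of 11 neutrophil markers 8.01 to 10.39, so the preparation held several blood cell types. In such bulk RNA, fewer cells of a type and less RNA per cell cannot be told apart.

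p53 is a transcription factor that responds to DNA damage and other stress, and many of its targets stop the cell cycle or repair DNA. Plk2 and Plk3 are serine/threonine kinases of the polo-like family that are induced by growth factors as well as by stress, Cdkn1a encodes p21, an inhibitor of cyclin-dependent kinases, and the GADD45 proteins bind p21 and PCNA and activate the p38 and JNK kinase arms. Mdm2 is the ubiquitin ligase that degrades p53 and is itself a p53 target, Btg2 is an antiproliferative coregulator, and Trp53inp1 promotes p53 activity and autophagy. In myeloid cells several of these genes are also early response genes, which are induced by cell activation without DNA damage.

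The promoters of Plk2, Cdkn1a and Gadd45a are shown because these genes were higher together in WKY rats and their windows hold a searched motif. Each sequence is the RefSeq window of 300 bases, 250 before to 50 after an annotated start, on build GRCr8. For Cdkn1a that start is not the outermost start of the gene, chr20:7150820, and its positions depend on this choice. The windows of Gadd45b and Mdm2 likewise do not use the outermost start. Plk2 lies at chr2:43702286-43702585 (+ strand), Cdkn1a at chr20:7150682-7150981 (+ strand) and Gadd45a at chr4:97486750-97487049 (- strand). Capitals mark a cyclic AMP response element (CRE) in Plk2 and a p53 half-site in Cdkn1a and in Gadd45a.
Plk2: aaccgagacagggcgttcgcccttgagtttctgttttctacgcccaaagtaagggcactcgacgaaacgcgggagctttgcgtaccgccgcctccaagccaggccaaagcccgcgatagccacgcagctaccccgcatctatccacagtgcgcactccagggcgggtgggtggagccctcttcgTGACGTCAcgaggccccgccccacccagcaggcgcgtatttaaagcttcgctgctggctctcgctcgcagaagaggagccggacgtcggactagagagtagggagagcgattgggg
Cdkn1a: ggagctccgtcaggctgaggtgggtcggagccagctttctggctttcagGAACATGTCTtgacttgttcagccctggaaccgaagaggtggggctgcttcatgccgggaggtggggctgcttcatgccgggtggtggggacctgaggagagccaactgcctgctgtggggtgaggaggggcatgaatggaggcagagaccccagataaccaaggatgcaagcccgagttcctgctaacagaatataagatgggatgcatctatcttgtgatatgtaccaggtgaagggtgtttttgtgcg
Gadd45a: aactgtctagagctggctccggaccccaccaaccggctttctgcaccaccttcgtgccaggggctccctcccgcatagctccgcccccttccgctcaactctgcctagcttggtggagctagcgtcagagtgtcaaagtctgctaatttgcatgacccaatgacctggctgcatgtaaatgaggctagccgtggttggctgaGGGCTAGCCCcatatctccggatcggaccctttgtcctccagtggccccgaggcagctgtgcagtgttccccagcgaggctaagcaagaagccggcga
The CRE of Plk2, TGACGTCA, lay at positions -66 to -59 from the start, the half-site GAACATGTCT of Cdkn1a at -201 to -192 and the half-site GGGCTAGCCC of Gadd45a at -48 to -39. The window of Btg2 held a CRE as well, at -201 to -194, and those of Plk3, Gadd45b, Gadd45g and Mdm2 held none of the motifs searched. Both strands were searched for the CRE, the AP-1 site TGANTCA, the p53 half-site and the CArG box, and no match to one of them is also a match to another. Among 33469 promoter windows of the same length, 1.83% held the CRE, 7.33% the AP-1 site, 7.98% the p53 half-site and 1.64% the CArG box. A match describes the letters of the window and not a bound site.

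To ask how the strains differed without the diet challenge, WKY rats were first compared with LEW rats on STD, which are other animals than those in which Plk2 was chosen. Of the 8 measured members, 5 were higher in WKY rats, namely Plk2, Plk3, Cdkn1a, Gadd45a and Gadd45b, and none was lower. Across all transcripts 11.3% passed the same threshold, an adjusted p under 0.05 in limma, and 5.88% passed it as higher in WKY rats. The median log2 difference of the 8 members was 0.62, beside -0.0026 for all transcripts. Gadd45g, Mdm2 and Trp53inp1 did not pass. For Plk2 and Plk3 every WKY rat lay above every LEW rat, which held for 4.37% of all transcripts. These p-values come from a 2-sided moderated test. It sets the difference of group means against the spread between rats, shared over all 4 groups, the CAF-fed rats included.

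Plk2 showed the largest difference among the members. Its log2 signal (probe set 10812954) was 11.32, 11.06, 11.07, 11.06 and 11.11 in the 5 STD-fed WKY rats, against 8.68, 9.11, 8.80, 8.35 and 8.45 in the 5 STD-fed LEW rats. The WKY values lay close together except for rat 1, and the gap between the strains was wider than the range within either of them. The difference was 2.45 ± 0.15 on the log2 scale (SE, 95% interval 2.13 to 2.77), or 5.45-fold, with an adjusted p of 9.40e-10, and Plk2 was number 32 of 28826 transcripts by p-value. The gene is an early response gene in fibroblasts and neurons and takes part in centriole duplication and in the scaling of synapses.

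Plk3, the polo-like kinase known for its part in stress signalling, was also higher in WKY rats, with a smaller difference. Its signal (probe set 10878938) was 10.37, 10.31, 10.31, 10.69 and 10.27 in STD-fed WKY rats, against 9.71, 10.13, 9.73, 9.61 and 9.90 in STD-fed LEW rats. The groups did not overlap, but LEW rat 2 came close to the lowest WKY rat. The log2 difference was 0.57 ± 0.13 (SE, 95% interval 0.30 to 0.85), 1.49-fold, with an adjusted p of 0.00591. The mitotic kinase Plk1 and the centriole kinase Plk4, the other measured members of the family, had differences of 0.05 (adjusted p = 0.848) and 0.10 (adjusted p = 0.600), and neither passed. The mean of Plk1 and Plk4 was 6.64 to 6.82 in the 4 groups, near the median of all transcript means, 6.86.

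**Figure D1:**
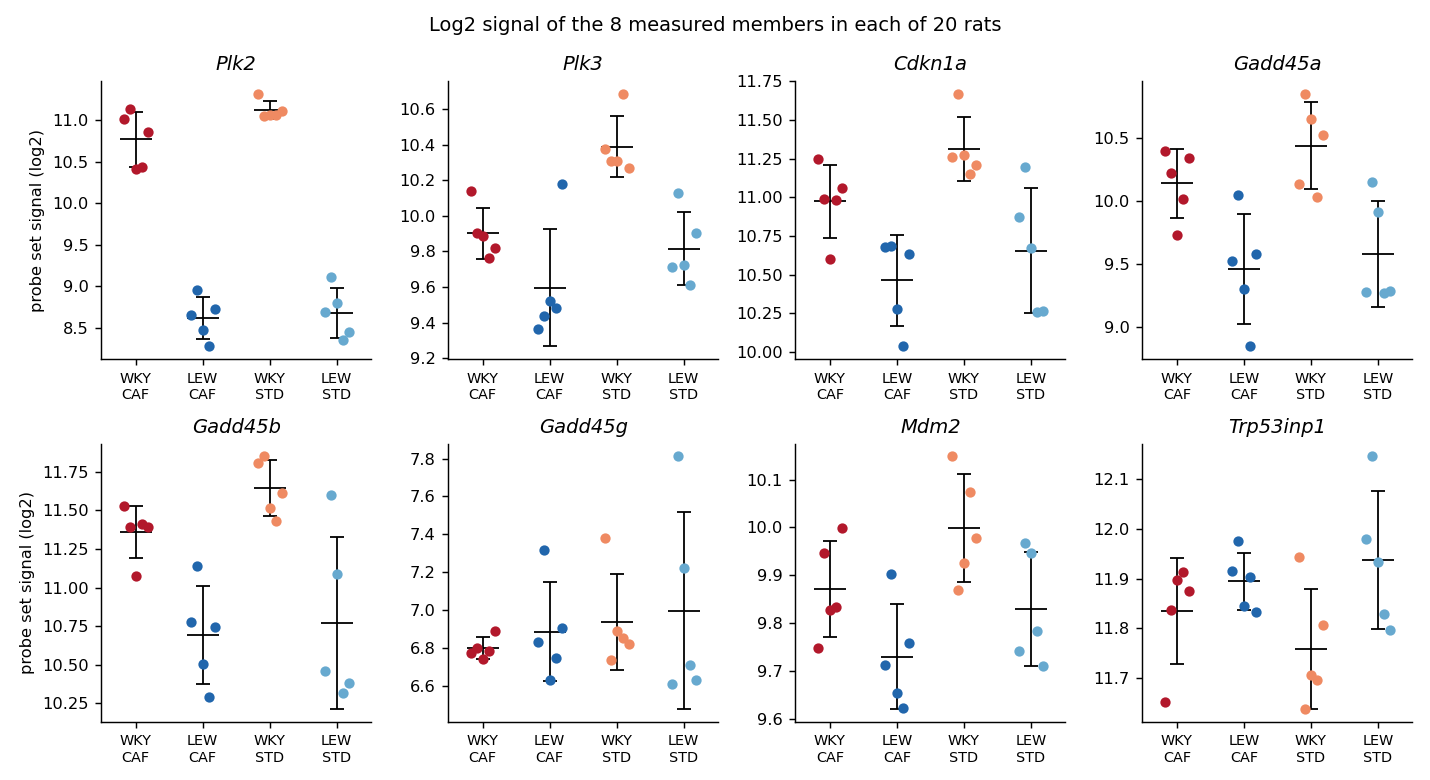
Log2 signal of the 8 measured genes in each of 20 rats. Points are rats, the long bar is the group mean and the whiskers are 1 SD (n = 5 per group), and each panel has its own axis, which does not start at 0. Plk2 is at 10.41 or higher in all WKY rats and at 9.11 or lower in all LEW rats.

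Cdkn1a, which encodes the cell cycle inhibitor p21, was 1.58-fold higher in WKY rats. The signal (probe set 10828827) was 11.26, 11.67, 11.27, 11.15 and 11.21 in STD-fed WKY rats, against 10.87, 11.20, 10.67, 10.26 and 10.27 in STD-fed LEW rats. LEW rat 2 lay above WKY rat 4, so the groups overlapped. The log2 difference was 0.66 ± 0.17 (SE, 95% interval 0.30 to 1.01), with an adjusted p of 0.0140.

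The 3 GADD45 genes did not move alike. Gadd45a, the family member with the best known p53 response, was 10.14, 10.85, 10.65, 10.03 and 10.52 in STD-fed WKY rats, against 9.28, 10.15, 9.91, 9.27 and 9.29 in STD-fed LEW rats. Its log2 difference was 0.86 ± 0.22 (SE, 95% interval 0.41 to 1.31, 1.81-fold, adjusted p = 0.0120), with LEW rat 2 above WKY rats 1 and 4. Gadd45b, induced by TGF-beta and NF-kB in other cells, was 11.81, 11.85, 11.52, 11.43 and 11.61 in STD-fed WKY rats, against 10.46, 11.60, 11.09, 10.32 and 10.38 in STD-fed LEW rats. Here too LEW rat 2 stood inside the WKY range while LEW rats 1, 4 and 5 lay below all others. The log2 difference of Gadd45b was 0.87 ± 0.20 (SE, 95% interval 0.46 to 1.29, 1.83-fold, adjusted p = 0.00563).

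Gadd45g, the third GADD45 gene, did not pass between the strains. It was 7.38, 6.74, 6.89, 6.85 and 6.82 in STD-fed WKY rats, against 6.61, 7.81, 7.22, 6.71 and 6.63 in STD-fed LEW rats. The highest values belonged to WKY rat 1 and to LEW rats 2 and 3, and the remaining 7 rats lay between 6.61 and 6.89. The mean of Gadd45g over the 20 rats was 6.90, near the median of all transcript means, 6.86. Whether this lower signal limited the measured difference was not tested. The log2 difference was -0.06 ± 0.18 (SE, 95% interval -0.44 to 0.33, adjusted p = 0.899). The interval therefore covers differences of either sign and leaves out the size measured for Gadd45b and Gadd45a.

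The genes that act on p53 itself differed little. Mdm2, the p53 ubiquitin ligase, was 10.15, 9.87, 9.93, 10.07 and 9.98 in STD-fed WKY rats, against 9.74, 9.97, 9.95, 9.78 and 9.71 in STD-fed LEW rats, with a log2 difference of 0.17 ± 0.07 (SE, adjusted p = 0.137). Trp53inp1, the p53 cofactor, was 11.94, 11.64, 11.71, 11.70 and 11.81 in STD-fed WKY rats, against 11.98, 12.15, 11.93, 11.83 and 11.80 in STD-fed LEW rats, with a log2 difference of -0.18 ± 0.07 (SE, adjusted p = 0.111). Both intervals, 0.02 to 0.31 for Mdm2 and -0.32 to -0.03 for Trp53inp1, leave out 0, but neither gene passed after adjustment over all transcripts. Trp53inp1 rested on 1 array, since without WKY rat 1 its difference was -0.22 and passed with an adjusted p of 0.0352.

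On CAF, the contrast in which Plk2 was chosen, the values are given without a test. The signal of Plk2 was 11.02, 11.14, 10.41, 10.43 and 10.86 in CAF-fed WKY rats, against 8.66, 8.96, 8.47, 8.27 and 8.73 in CAF-fed LEW rats, a log2 difference of 2.15 or 4.45-fold. Plk2 was the only member without overlap between the strains on CAF, against 4.16% of all transcripts that lay higher without overlap. The log2 differences of the other members were 0.31 for Plk3, 0.51 for Cdkn1a, 0.68 for Gadd45a, 0.67 for Gadd45b, -0.09 for Gadd45g, 0.14 for Mdm2 and -0.06 for Trp53inp1. All 8 had the same sign as on STD, in other rats. The median over the members was 0.41, beside -0.0092 for all transcripts.

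**Figure D2:**
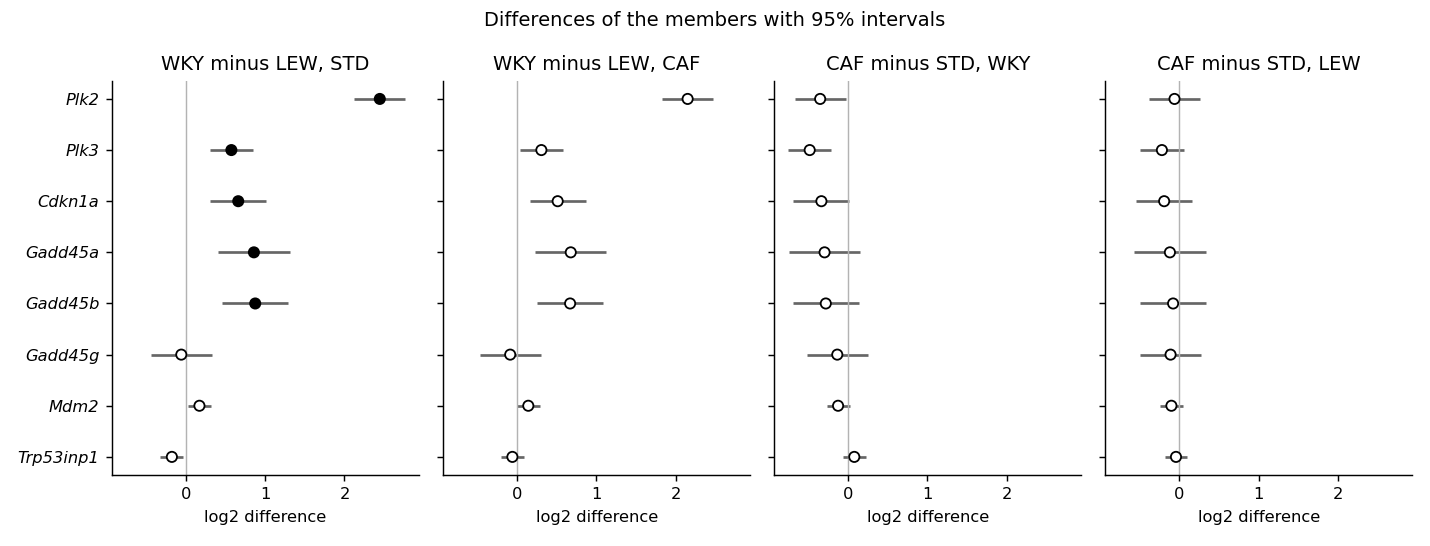
Log2 difference of each gene in the strain and diet contrasts. Points are differences of group means, lines are 95% intervals from limma and filled points passed an adjusted p under 0.05. The contrast of strains on CAF is shown as a description, with no point filled. Plk2 stands apart in both strain contrasts, and in the diet contrasts no point is filled.

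The effect of the diet was then compared within each strain. These contrasts share the CAF arrays with the one that chose Plk2. In WKY rats no member passed the adjusted threshold, as did 0% of all transcripts. The log2 differences, CAF minus STD, were negative for 7 of the 8 members, all except Trp53inp1 at 0.08, and their median was -0.29, beside -0.0084 for all transcripts. At an unadjusted p under 0.05 in limma, 2 of the 8 stood out, Plk3 and Plk2, where 8.81% of all transcripts did. Plk3 was 10.14, 9.90, 9.89, 9.76 and 9.82 in CAF-fed WKY rats, against 10.27 to 10.69 in STD-fed WKY rats. Every CAF-fed rat thus lay below every STD-fed rat, a pattern seen in this direction in 0.961% of transcripts. The log2 difference of Plk3 was -0.49 ± 0.13 (SE, 95% interval -0.76 to -0.21), with an unadjusted p of 0.00139 and an adjusted p of 0.249 in limma.

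Plk2 averaged 10.77 ± 0.33 in CAF-fed WKY rats and 11.12 ± 0.11 in STD-fed WKY rats (SD, n = 5 each). CAF-fed WKY rats 3 and 4 were lower than the others, and the groups overlapped. CAF minus STD was -0.35 on the log2 scale, with a 95% interval of -0.67 to -0.03 and an adjusted p of 0.518. The values were -0.34 for Cdkn1a, -0.30 for Gadd45a, -0.28 for Gadd45b, -0.14 for Gadd45g and -0.13 for Mdm2, with adjusted p-values of 0.589, 0.742, 0.728, 0.880 and 0.626.

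In LEW rats no member passed after adjustment, where 0% of all transcripts did, and none at an unadjusted p under 0.05, where 5.46% of all transcripts did. Plk2 averaged 8.62 ± 0.26 in CAF-fed LEW rats and 8.68 ± 0.30 in STD-fed LEW rats (SD, n = 5 each), a log2 difference of -0.06 (95% interval -0.38 to 0.26, adjusted p = 0.990). The other differences were between -0.04 for Trp53inp1 and -0.22 for Plk3, all 8 were negative with all rats and their median was -0.11. In 17 other fits, 1 rat was left out or the processing or model was changed. The differences then reached 0.05 for Plk2, 0.03 for Gadd45a, 0.13 for Gadd45b, 0.09 for Gadd45g and 0.01 for Trp53inp1. Those of Plk3, Cdkn1a and Mdm2 stayed negative in these fits. The value of Plk3 depended on CAF-fed LEW rat 5, the highest of its group at 10.18, and was -0.36 without it (adjusted p = 0.843). Whether the diet acted differently in the strains was tested with the interaction, in which 0% of all transcripts passed after adjustment and 5.95% at an unadjusted p under 0.05. No member passed either threshold, and the interaction was -0.29 for Plk2 (95% interval -0.75 to 0.16) and -0.27 for Plk3, both with an adjusted p of 0.901. Without CAF-fed LEW rat 5 the interaction of Plk3 was -0.12 (adjusted p = 0.880).

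With all rats, the means of the 4 groups had the same order for Plk2, Plk3, Cdkn1a, Gadd45a and Gadd45b. STD-fed WKY rats were highest, then CAF-fed WKY, STD-fed LEW and CAF-fed LEW rats. The last step, between the LEW groups, was not called for any of these genes. When 1 rat was left out or the processing or model was changed, it could reverse for Plk2, Gadd45a and Gadd45b. CAF minus STD then reached 0.05, 0.03 and 0.13, while that of Plk3 and Cdkn1a stayed negative. The neighbours in that order overlapped except where the strains of Plk2 met and where CAF-fed WKY rats lay below STD-fed WKY rats in Plk3. The means of Plk3 in the 4 groups, in the order CAF-fed WKY, CAF-fed LEW, STD-fed WKY and STD-fed LEW, were 9.90 ± 0.14, 9.60 ± 0.33, 10.39 ± 0.17 and 9.82 ± 0.20 (SD). Those of Cdkn1a were 10.97 ± 0.23, 10.46 ± 0.29, 11.31 ± 0.21 and 10.65 ± 0.40, those of Gadd45a 10.14 ± 0.27, 9.46 ± 0.44, 10.44 ± 0.35 and 9.58 ± 0.42, and those of Gadd45b 11.36 ± 0.17, 10.69 ± 0.32, 11.64 ± 0.18 and 10.77 ± 0.56. The SD of these 4 genes was smaller in WKY than in LEW rats on either diet.

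Other genes of the pathway were read from lists. The counts of called genes in these lists and in those below stand beside 11.3% of all transcripts on STD and 7.58% on CAF. Of 25 measured p53 targets other than the members, 3 were higher and 2 lower in WKY rats on STD, and their median log2 difference was -0.0032. Dram1, an autophagy gene, was 0.55 higher (adjusted p = 9.33e-05), the death receptor gene Fas 0.93 (adjusted p = 0.00586) and the antioxidant regulator gene Sesn1 was lower, at -0.35 (adjusted p = 0.00519). The other called genes, named after their values were seen, were Pmaip1 (Noxa, a death gene of the Bcl2 family) at 0.60 (adjusted p = 0.0222) and Zmat3 at -0.24 (adjusted p = 0.0167). On CAF none of the 25 passed, against 7.58% of all transcripts. Of 12 measured genes for p53 regulators, none was higher and 2 were lower on STD, the checkpoint kinase gene Chek2 at -0.43 (adjusted p = 0.0167) and the p53 kinase gene Dyrk2 at -0.25 (adjusted p = 0.0123), while Atm, the DNA damage kinase, was 0.14 (adjusted p = 0.165). On CAF 2 of the 12 were higher and none lower, Atm at 0.46 (adjusted p = 3.49e-05) and, named after its value was seen, the ubiquitin ligase gene Rchy1 at 0.24 (adjusted p = 0.00953).

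The lists closest to the work of p21 and the GADD45 proteins held calls in both directions on STD. None of 6 other cyclin-dependent kinase inhibitors passed on STD, with Cdkn1b (p27) at -0.14 (adjusted p = 0.0914), Cdkn1c at 0.13 and Cdkn2b at 0.13. Of 13 genes for G1/S cyclins, their kinases and the Rb family, Pcna, the replication clamp that binds p21, was 0.50 higher in WKY rats (adjusted p = 8.86e-05), and Cdk2 at -0.24 (adjusted p = 0.0102) and Ccnd3 at -0.24 (adjusted p = 0.0247) were lower. On CAF 2 of the 13 were higher and none lower, Pcna at 0.42 (adjusted p = 0.000773) and, named after its value was seen, Rbl2 at 0.24 (adjusted p = 0.0353). Of 10 genes of the p38 and JNK arm, Map3k4, the kinase that GADD45 proteins activate, was -0.79 and lower in WKY rats (adjusted p = 0.000202), as was Map2k6 at -0.27 (adjusted p = 0.0487), and Map2k3 was higher at 0.51 (adjusted p = 0.000382). None of 5 genes of the BTG and TOB family passed, among them Tob1 at 0.41 (adjusted p = 0.137), Tob2 at 0.09 and Btg4 at -0.03.

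Early response genes differed between the strains in the same direction as these members. Of 21 measured immediate-early genes, 16 were higher and none lower in WKY rats on STD, with a median log2 difference of 0.65. Among them were the transcription factor genes Egr1 at 0.97 (adjusted p = 4.75e-06) and Nr4a1 at 0.65 (adjusted p = 0.000108), and the phosphatase gene Dusp2 at 0.66 (adjusted p = 9.50e-05). Their mean was 11.05 to 11.23 in STD-fed WKY rats, against 10.24 to 10.86 in STD-fed LEW rats, without overlap. On CAF 8 of the 21 were higher and none lower, with a median of 0.38. Of 9 genes of the integrated stress response, 3 were higher on STD and on CAF, the translation phosphatase subunit gene Ppp1r15a at 0.88 and 0.77, Ddit3 at 0.57 and 0.36 and Atf4 at 0.25 and 0.19. No gene of these lists passed in either diet contrast or in the interaction. In WKY rats the median of CAF minus STD was -0.26 for the immediate-early genes and -0.19 for the integrated stress response. That of the members was -0.29.

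**Figure D3:**
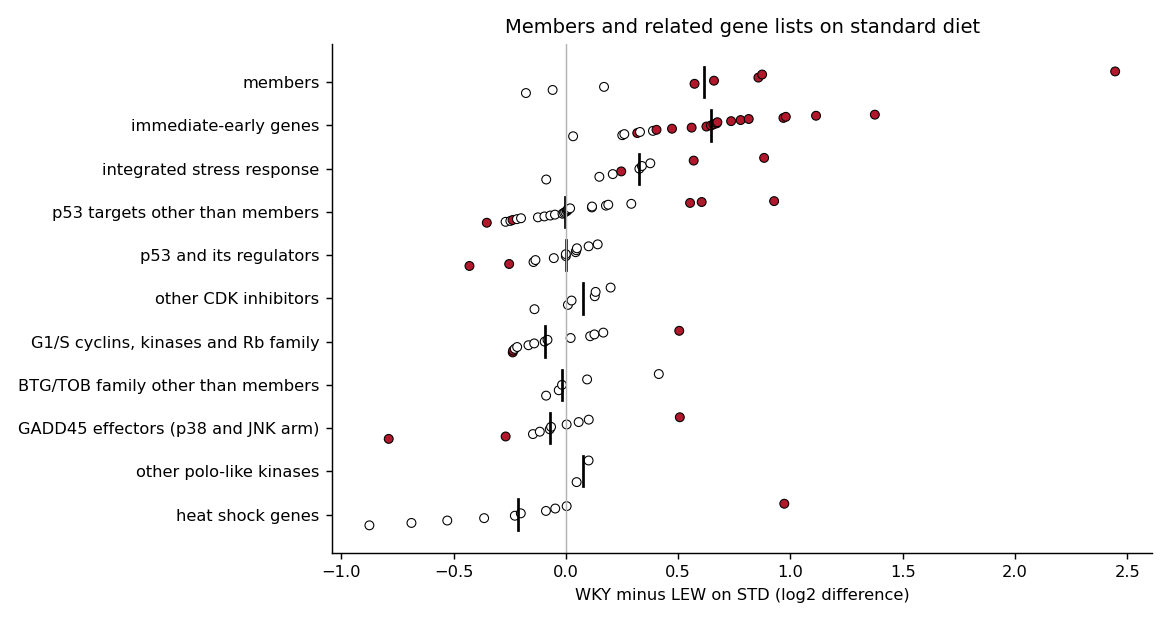
Log2 difference between WKY and LEW rats on STD for the 8 measured members and for the genes of 10 related lists. Each point is a gene, filled where the adjusted p was under 0.05, and the vertical bar is the list's median. The members and the immediate-early genes have medians of 0.62 and 0.65, and the other p53 targets lie on both sides of 0.

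Markers of blood cell types moved with the strains as well. On STD 8 of 11 neutrophil markers were higher in WKY rats and none lower, and their mean was 9.08 to 10.39 in STD-fed WKY rats, against 8.01 to 8.59 in STD-fed LEW rats. Of 7 NK cell markers 6 were higher and 1 lower, with a mean of 9.92 to 10.52 in STD-fed WKY rats, against 9.14 to 9.67 in STD-fed LEW rats. Of 9 monocyte markers 2 were higher and 4 lower, with a mean of 11.28 to 11.55 in STD-fed WKY rats, against 11.76 to 11.91 in STD-fed LEW rats. Of 8 T cell markers none was higher and 2 were lower, with a mean of 11.12 to 11.31 in STD-fed WKY rats, against 11.40 to 11.51 in STD-fed LEW rats. Platelet markers (0 higher and 2 lower of 4) and red cell markers (0 and 1 of 6) had calls in the same direction, and none of 3 B cell markers passed. In WKY rats the medians of CAF minus STD were -0.27, -0.32 and -0.23 for neutrophil, NK cell and monocyte markers. They were 0.01, 0.17, 0.22 and 0.25 for T cell, B cell, platelet and red cell markers. The part of the T cell and platelet markers in the members' differences was not tested. No marker was listed at 0.

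The members were refitted with the mean of the immediate-early genes or of the neutrophil, NK cell, monocyte or red cell markers as a covariate, a choice made after the data were seen. No such fit was run for the other lists of markers. The difference of Plk2 on STD remained called in these 5 fits, at 1.63 with the immediate-early genes (adjusted p = 0.000143), 2.11 with the neutrophil markers (adjusted p = 7.67e-05), 2.58 with the NK cell markers (adjusted p = 0.000113), 2.74 with the monocyte markers (adjusted p = 7.53e-08) and 2.44 with the red cell markers (adjusted p = 8.06e-09). Plk3, Cdkn1a, Gadd45a and Gadd45b were no longer called with the immediate-early genes, the neutrophil markers or the NK cell markers as covariate. With the immediate-early genes their differences were 0.11, -0.22, -0.22 and -0.31, and with the neutrophil markers 0.48, 0.15, -0.19 and 0.26. With the NK cell markers they were 0.69, 0.89, 0.68 and 0.94, with adjusted p-values of 0.328 to 0.702. With the monocyte markers Plk3 alone of the 5 was not called, at 0.46 (adjusted p = 0.174). The immediate-early, neutrophil, NK cell and monocyte means did not overlap between the strains on STD. Their part in these 5 genes, Plk2 among them, and that of the strain therefore cannot be told apart. With the immediate-early genes as covariate, CAF minus STD in WKY rats was 0.04 for Plk2, -0.27 for Plk3 and 0.08 for Cdkn1a. It was 0.22 for Gadd45a and 0.29 for Gadd45b, and none of these diet differences was called.

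In 4 arrays the mean of 10 heat shock genes stood at 10.82 to 11.47, against 9.82 to 10.19 in the other 16. They were those of STD-fed WKY rat 1, STD-fed LEW rats 2 and 3 and CAF-fed LEW rat 2, so the high values belonged to no single group. The same arrays held the highest values of Gadd45g, at 7.22 to 7.81, against 6.61 to 6.90 in the other 16. Of these rats, STD-fed LEW rats 2 and 3 were the highest of their group in Gadd45a and Gadd45b. Without these 4 arrays, a set chosen after the data were seen, 6 members were called on STD, where 3024 of 28826 transcripts were. The log2 differences were then 2.58 for Plk2, 0.65 for Plk3, 0.86 for Cdkn1a, 1.23 for Gadd45a and 1.22 for Gadd45b, and Mdm2 was the sixth at 0.22 (adjusted p = 0.0448). Gadd45g was 0.18 without them (adjusted p = 0.0977). In the diet contrasts no member was called without them. In LEW rats CAF minus STD was then 0.04 for Plk2, 0.19 for Gadd45b and 0.13 for Gadd45g, and 3 of the 8 differences, those of Plk3, Cdkn1a and Mdm2, were negative. In WKY rats it was -0.31 for Plk2 and -0.49 for Plk3. Of the 10 heat shock genes themselves, Hspa4l was higher in WKY rats on STD (0.97, adjusted p = 0.0091) and none was lower.

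**Figure D4:**
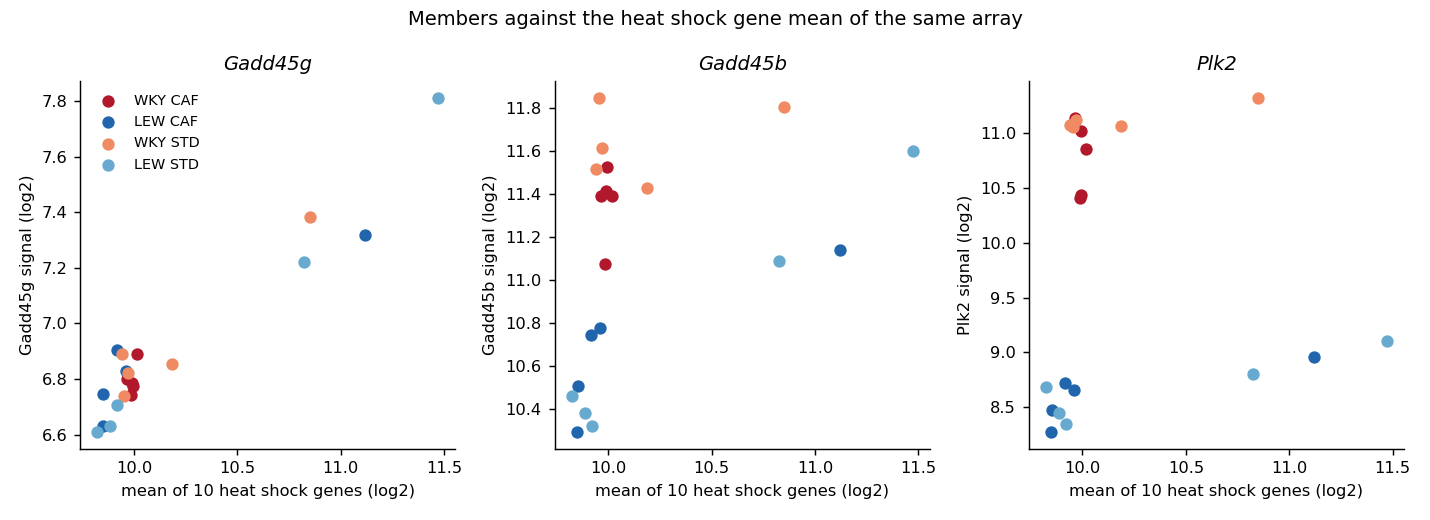
Log2 signal of Gadd45g, Gadd45b and Plk2 against the mean of 10 heat shock genes in the same array, 1 point per rat. The 4 arrays at 10.82 or higher hold the 4 highest values of Gadd45g. WKY and LEW rats stay apart in Plk2, with STD-fed WKY rat 1 the only WKY rat among these 4 arrays.

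Among rats of the same group, the members varied together mainly in LEW rats. Of 28 pairs of members, r of the deviations from group means was over 0.5 in 7 within WKY rats and in 21 within LEW rats, and negative in 13 within WKY rats and in 0 within LEW rats. The difference between the strains was not tested. STD-fed LEW rats 2 and 3 and CAF-fed LEW rat 2 had arrays high in heat shock genes, as had STD-fed WKY rat 1. Without STD-fed and CAF-fed LEW rat 2, r over 18 arrays was 0.21 for Cdkn1a and Gadd45g, against 0.51 with all rats. For Gadd45g and Mdm2 it was 0.77, against 0.80. In all rats Plk2 and Gadd45b had a Pearson r of 0.78 and a Spearman rho of 0.72 over the 20 arrays, Plk2 and Cdkn1a 0.74 and 0.70, and Plk2 and Gadd45a 0.71 and 0.66. Without the 2 rats farthest from the group mean in Plk2, STD-fed LEW rat 2 and CAF-fed WKY rat 2, r was 0.77, 0.73 and 0.68. It fell further, to 0.67, 0.65 and 0.58, without STD-fed and CAF-fed LEW rat 2. The r of Plk2 with these 3 genes was 0.36 to 0.51 within WKY rats and 0.93 to 0.94 within LEW rats. These are descriptions over arrays that share an RNA preparation and a platform, and they are 3 of the 28 pairs. Plk3 followed the others least, with an r of -0.13 to 0.33 to the other 7.

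Gadd45b and Gadd45g had an r of 0.86 over 20 arrays, but 0.28 within WKY rats. Gadd45a and Gadd45b had 0.84 (0.59 within WKY rats), Cdkn1a and Gadd45b 0.81 (0.85) and Gadd45g and Mdm2 0.80 (0.70). Within WKY rats Cdkn1a and Trp53inp1 had -0.58 and Gadd45a and Mdm2 -0.47. With the mean of the heat shock genes, r was 0.96 for Gadd45g, 0.84 for Gadd45b, 0.80 for Mdm2, 0.65 for Plk2 and 0.15 for Plk3. Within WKY rats these were 0.94, 0.26, 0.65, 0.29 and 0.16. With the mean of the immediate-early genes it was 0.83 for Gadd45b, 0.75 for Plk2 and 0.50 for Plk3, and within WKY rats 0.20, 0.54 and 0.87. With the mean of the 25 other p53 targets it was 0.76 for Gadd45b, 0.75 for Gadd45g, 0.73 for Mdm2 and 0.65 for Plk2, and within WKY rats 0.29, 0.27, 0.49 and 0.25. Gadd45a had 0.77 with the mean of the neutrophil markers, 0.84 within WKY and 0.76 within LEW rats.

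**Figure D5:**
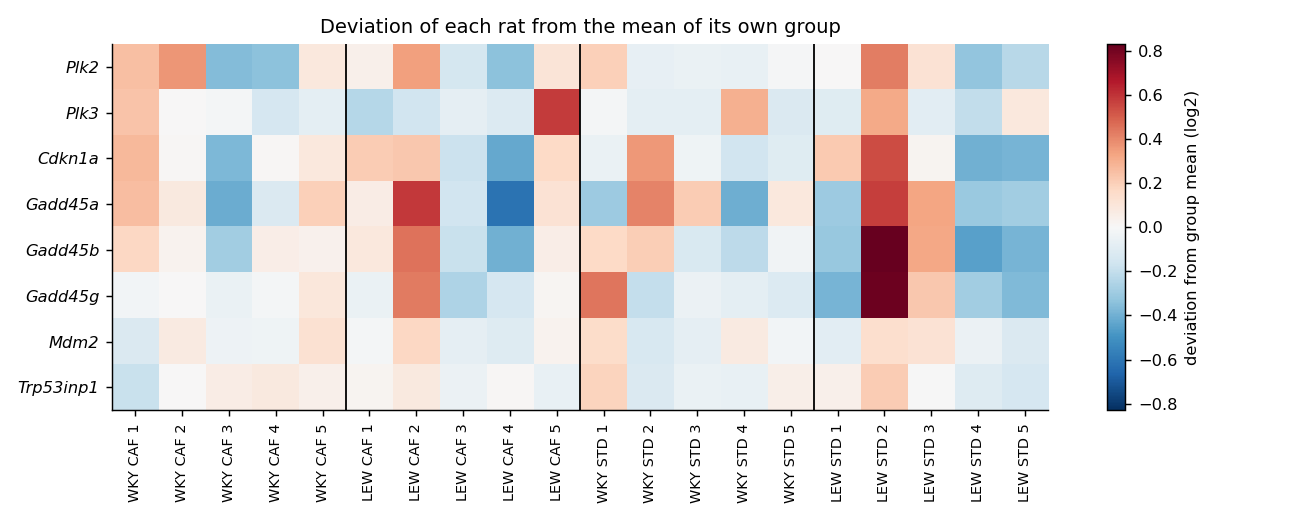
Deviation of each rat from the mean of its own group, in log2 units, for the 8 measured genes in rows and the 20 rats in columns. Red is above and blue below the group mean. STD-fed LEW rat 2 is above its group mean in all 8 genes, and STD-fed LEW rat 4 is below in all 8.

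By the same measure, the named transcripts closest to Plk2 were Txnrd1 (r = 0.88), which encodes thioredoxin reductase, Eid3 (0.85), Ripk3 (0.84), a kinase of necroptosis, Cd55 (0.83), a complement regulator, and Trdmt1 (0.83), out of 15201. An r over 0.7 with Plk2 was found for 0.757% of them. Closest to Plk3 were Naa50, Cct8, Ch25h, Rgs1 and Pax8, with r of 0.80 to 0.83. Cdkn1a varied most like Socs3 (0.95), the feedback inhibitor of cytokine signalling, Emp3 (0.94), Tubb6 (0.93), Sh2b2 (0.92) and Rassf4 (0.91). Gadd45a varied most like Gnai3 (0.91), Klhdc10, Mob3a, Myd88 and Irf1, Gadd45b most like Klf4 (0.94), Plat, Manf, Hmox1 and Zfand2a, and Gadd45g most like Jun (0.96), Bcl2l13, Mns1, Ccdc117 and Ahsa2. Mdm2 varied most like Btg3 (0.89), an antiproliferative relative of Btg2, Arl6ip1, Klf6, Slc16a1 and Gba2. For Trp53inp1 these were Eaf2 (0.83), Rnaseh2a, Eif3j, Pde12 and Sod1.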

How the data were processed

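The authors deposited 1 table of log2 signals per probe set, normalised between arrays, by RMA according to the methods and by MAS5, without a version, according to the submitters' processing notes. Which of the methods made the values is not settled here, and a fold change can depend on it. The values ran from 3.57 to 14.4, array medians from 6.83 to 6.90, and they were used as deposited, with no filter, so that all 8 probe sets of members were tested. No 2 arrays were identical. Each array's group was taken from its sample label.

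The members and gene lists were chosen with earlier results of these data known. limma 3.58.1 in R 4.3.3 was fitted to all 20 arrays with 1 mean per group (16 residual and 3.67 prior degrees of freedom), with Benjamini-Hochberg adjustment over all 28826 transcripts and an adjusted p under 0.05 as a call. The median residual SD was 0.110 and the median SE of a difference 0.0689, and the number of arrays limits this precision. The procedure was checked on simulated data. A list took 1 probe set per gene, that of the highest mean. From each list the 3 genes of the smallest p on STD are named, and for each member the 5 transcripts with the highest correlation of deviations. Alternatives were other normalisation, a filter on low signals, trend and robust fits, array weights, fits of only the groups compared, the replicate number as a block and leaving out each rat. Gadd45g and the mean of Plk1 and Plk4 were set beside the median of all transcript means. Otherwise the levels of different probe sets were not compared with each other.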

Additional observations from a re-analysis of the deposited data

Results flagged for a closer look

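In 5 of 32 sets of 5 rats, 1 rat stood apart from the other 4, with a gap to the nearest over 0.71 of the whole range. Chance alone gives such a gap in about 1 of 20 sets. Plk2 was 11.32 in STD-fed WKY rat 1, where the next rat was at 11.11, and Gadd45g was 7.38 in the same rat, with the next at 6.89. Plk3 was 10.69 in STD-fed WKY rat 4, with the next at 10.37, and 10.18 in CAF-fed LEW rat 5, with the next at 9.52. Cdkn1a was 11.67 in STD-fed WKY rat 2, with the next at 11.27. STD-fed WKY rat 1 was one of the 4 arrays with high heat shock genes, and the other 3 rats were not among them. Leaving out any of the 3 STD-fed rats ended no call of a member on STD, and without CAF-fed LEW rat 5 the diet difference of Plk3 in LEW rats was -0.36, against -0.22 with all rats.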

How the results depend on the processing

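On STD, Plk2, Plk3, Cdkn1a, Gadd45a and Gadd45b kept their direction and their call under all 17 alternatives planned for them, at 2.36 to 2.55, 0.50 to 0.65, 0.56 to 0.80, 0.75 to 1.00 and 0.76 to 1.08 on the log2 scale, with adjusted p-values of at most 0.0466. Leaving out 1 rat gave 5 to 6 called members and 2435 to 3414 called transcripts, against 3247 with all rats, and on CAF 1677 to 2211 transcripts, against 2185. The diet in WKY rats called 0 to 1 transcripts without 1 rat, the 1 without CAF-fed WKY rat 4. The labels do not say that replicate numbers pair the rats. Of 30 same-numbered pairs 9 had a correlation over 0.1, with a range of -0.18 to 0.43, which does not settle a pairing. With the replicate number as a block, the diet in WKY rats called 1 transcript and no call of a member changed. Apart from that fit, each array's deviations were correlated with those of the other groups, and r was averaged by replicate number. The array's own number gave the highest average in 6 of 20 arrays.

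The following fits were chosen after the data were seen. On STD the covariates of immediate-early genes, neutrophil markers and NK cell markers left 554, 440 and 324 called transcripts and 2, 1 and 1 called members. The second member with the immediate-early covariate was Gadd45g, at -1.04 (adjusted p = 0.0345). With that covariate Cdkn1a, Gadd45a and Gadd45b were -0.22, -0.22 and -0.31 on STD and -0.051, -0.016 and -0.093 on CAF, Mdm2 was -0.10 on STD and -0.032 on CAF, and Gadd45a was -0.19 on STD with the neutrophil covariate, all reversed in sign, and those on STD were not called. On CAF the covariates of immediate-early genes, monocyte, neutrophil and NK cell markers left 994, 648, 988 and 648 called transcripts. The cause was not tested. Probe sets near the low end of the range show changes less well, and 5 rats per group limit the precision of all values.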
